A study of Mus musculus with 20 samples.

Results

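Malat1, Neat1, Miat, Firre and Snhg11 are long noncoding RNAs that stay in or are enriched in the nucleus, and their levels were followed in cultured mouse forebrain slices with and without intact Tnfaip6, which encodes the secreted protein TSG-6, a binder of hyaluronan. The RNAs are 5 of the 19722 genes listed at 4 h and of the 51912 listed at 24 h, and were found by matching gene identifiers to symbols. Malat1, Miat and Firre were chosen by their lower normalised reads in KO than in WT slices at 4 h. The 4 h values of all 5 RNAs are therefore given as a description without a test, and tests are reported at 24 h.

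Slices came from pups at postnatal day 4 and were kept with 5% horse serum for 4 h or 24 h. At 4 h there were 3 libraries labelled KO (TSG-6-/-) and 3 labelled WT (TSG-6+/+). At 24 h there were 4 KO and 3 heterozygous (Het) libraries of each sex. The Het slices therefore carry a single intact copy of the gene, and no WT group at 24 h is analysed here. The treatment field of these libraries mentions WT slices, but their titles and genotype fields give Het, which was followed. The sample protocols name DMEM as the serum medium and the series text names HBSS. The sources used here do not give the allele, the strain or the number of pups behind each library. P-values thus cover the spread among libraries only, which may be technical in part.

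The library checks touch every result below. Libraries held between 11411532 and 15030171 reads at 4 h, recovered from the deposited values, and between 8482933 and 18051300 at 24 h. Tnfaip6 itself was not lost in the KO-labelled libraries: it ranged from 40.6 to 83.3 normalised reads in KO slices and from 67.2 to 92.6 in WT slices at 4 h, and from 5.14 to 8.09 CPM (counts on a scale shared by all libraries) in KO slices and from 3.43 to 6.42 in Het slices at 24 h. The deposited values are gene totals, so reads of a shortened transcript would be counted. KO female 2 went against its label, with 0 reads of Xist and 152 RPM of Y-linked genes (RPM is reads over the library total, on the same scale as CPM). The KO minus Het fold changes of the 5 RNAs in which it enters are given with and without it. In the comparison of females with males only Firre, of the 5 RNAs, is given without it. The gene list counts at 24 h include it.

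These RNAs act mostly through the proteins and chromatin they gather. Malat1 concentrates in nuclear speckles, where splicing factors are stored. Neat1 is the scaffold of paraspeckles, bodies that hold RNA-binding proteins and assemble on newly made Neat1. Miat, also called Gomafu, forms separate foci in neuronal nuclei and binds splicing factors. Firre is made from the X chromosome and contributes to its nuclear positioning. Snhg11 is the host of small nucleolar RNAs and is abundant in neurons.

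The genes lie on 4 chromosomes of the GRCm38 build, by the GENCODE M21 annotation. Malat1 (ENSMUSG00000092341, chr19:5795690-5802672, minus strand) and Neat1 (ENSMUSG00000092274, chr19:5824708-5845478, minus strand) are neighbours, with 6983 and 20771 bases of exon. Miat (ENSMUSG00000097767, chr5:112213228-112229395, minus strand) has 9293 bases of exon. Firre (ENSMUSG00000085396, chrX:50555744-50635321, minus strand) has 8247 bases of exon within a span of 79578 bases. Snhg11 (ENSMUSG00000044349, chr2:158375638-158386145, plus strand) has 8521 bases of exon and is annotated there as protein-coding. Reads from the opposite strand cannot be told apart because the strand setting is not given. Of the genes that overlap, Gm26953 on the strand opposite to Miat held 17 counts over all 24 h libraries, against 11749 for Miat.

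The 3′ ends of Malat1 and of long Neat1 are shown because they bear on how their reads arise. Both RNAs are known to be cut from a longer transcript and to end in an A-rich tract that folds back on upstream U-rich stretches, in place of a poly(A) tail. SMART-Seq chemistry primes on runs of A, so the reads of Malat1 and of long Neat1 depend on priming at such tracts or inside the RNA. The short form of Neat1 is not covered by this. The annotated Malat1-201 transcript runs 292 bases past the tract, and Neat1-201 stops at it. In the sequences, written as DNA 5′ to 3′ on the transcript strand (GENCODE M21), capitals mark the U-rich stretches and the A-rich tract:

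Malat1-201, chr19:5795982-5796081, minus strand: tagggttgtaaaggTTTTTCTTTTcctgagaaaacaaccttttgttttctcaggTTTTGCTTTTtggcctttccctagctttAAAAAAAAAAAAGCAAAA

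Neat1-201, chr19:5824708-5824807, minus strand: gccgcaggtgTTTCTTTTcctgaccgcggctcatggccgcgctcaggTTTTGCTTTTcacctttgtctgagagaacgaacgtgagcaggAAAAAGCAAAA

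Both stretches hold the run TTTTGCTTTT, and both end in GCAAAA. Gene totals do not separate the short from the long form of Neat1, so its values below add the 2 forms.

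Miat is shown for its repeat. TACTAAC, the intron branch-point sequence bound by the splicing factor SF1, occurs 6 times in the 9163 bases of Miat-205, or 0.65 times per kb. Of the 55450 genes with a transcript, 3 have as many in their longest one (0.0054%), Miat included, and 2 of the 4190 genes with a transcript of 5000 bases or more. Neat1-201 has 1 copy, and at least 1 is present in 4.56% of all genes, while Malat1, Firre and Snhg11 have 0. The 6 copies begin at bases 4941, 5041, 5066, 5589, 5603 and 5623 of the transcript, and 5 of them lie in the following stretches, with the repeat in capitals:

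Miat-205, chr5:112217309-112217360, minus strand: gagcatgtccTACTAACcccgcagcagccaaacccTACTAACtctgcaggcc

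Miat-205, chr5:112216752-112216812, minus strand: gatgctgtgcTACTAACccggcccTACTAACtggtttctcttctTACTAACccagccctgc

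At 4 h every one of the 5 RNAs averaged lower in KO slices than in WT slices, by 0.60 to 0.83 on the log2 scale. Values at 4 h are the deposited normalised reads, each library's reads divided by its size factor, and fold changes are on the log2(value + 1) scale with their standard error (SE). Of the 15181 genes tested, 7 passed an adjusted p of 0.05 in limma (0.0461%), edgeR on the recovered reads also called 7, and a fit that paired libraries by replicate number called 38 (0.25%).

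Malat1, the speckle RNA, had 573, 388 and 608 normalised reads in KO slices 1, 2 and 3, against 1151, 689 and 954 in WT slices 1, 2 and 3. The KO and WT ranges did not overlap. The means were 523 ± 118 in KO slices and 931 ± 232 in WT slices (SD, n = 3 each), a log2 fold change of -0.83 ± 0.18.

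Neat1, the paraspeckle RNA, had 95.4, 71.5 and 109.5 normalised reads in KO slices, against 200.7, 139 and 151 in WT slices, in the same order. All 3 KO values were again under all 3 WT values. The log2 fold change was -0.83 ± 0.19, on counts of 81 to 227 reads per library. These are the lowest counts among the 5 RNAs.

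Miat, the RNA of the TACTAAC repeats, had 2861, 1471 and 2625 normalised reads in KO slices, against 3869.8, 2613 and 3785 in WT slices. WT 2 lay below KO 1 and KO 3, so the groups overlapped. The log2 fold change was -0.60 ± 0.20, and it was -0.30 without KO 2.

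Firre, from the X chromosome, had 404, 219 and 379.9 normalised reads in KO slices, against 588, 449 and 603 in WT slices, without overlap. Its log2 fold change was -0.75 ± 0.19, and -0.47 without KO 2. Sex is not labelled at 4 h. KO 1 and WT 1 were the libraries with Xist reads, at 196 and 391 RPM, and the others had at most 0.20. Without both of them the log2 fold change of Firre was -0.85.

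Snhg11 had 4219, 1259 and 3849 normalised reads in KO slices, against 5543, 3401 and 4864 in WT slices. KO 1 and KO 3 lay above WT 2, so the groups overlapped. Its log2 fold change of -0.72 ± 0.33 had the widest error of the 5 RNAs and was -0.16 without KO 2.

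**Figure D1:**
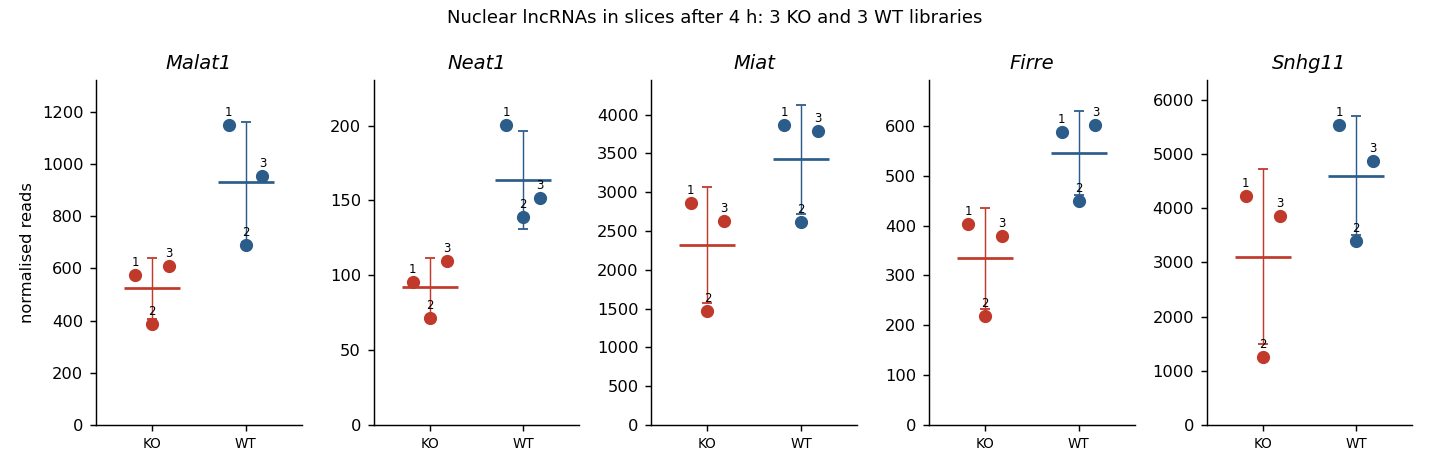
Normalised reads of the 5 RNAs in KO and WT slices after 4 h; points are libraries with their replicate number, lines are means and bars are SD (n = 3 each). KO 2 is the lowest library and WT 2 the lowest WT library in every panel, and KO and WT do not overlap for Malat1, Neat1 and Firre.

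For 3 of the 5 RNAs the KO and WT values did not overlap, a pattern that 8.88% of all genes tested showed with KO lower. As the 4 h contrast was used to choose members, nothing is read from that count. The libraries with the replicate number 2 were the lowest of their group for all 5 RNAs. KO 2 also had the lowest sum of mitochondrially encoded genes, 7718 RPM against 10254 and 11286 in the other KO slices and 10784 to 11404 in WT slices, and its part in the result was not tested. Compared within replicate numbers, the KO level was 49.8%, 56.4% and 63.7% of the WT level for Malat1 in pairs 1, 2 and 3. For Neat1 it was 47.6%, 51.4% and 72.3%. It was 73.9%, 56.3% and 69.4% for Miat and 68.7%, 48.7% and 63.0% for Firre. Snhg11 varied most between pairs, with 76.1%, 37.0% and 79.1%. With the replicate number as a block the fold changes are the same and the SE is 0.09 for Malat1, 0.16 for Neat1, 0.08 for Miat, 0.11 for Firre and 0.17 for Snhg11.

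Summed markers of some cell types also separated KO from WT slices at 4 h, and those of others overlapped. Each list held 10 marker genes, summed as RPM, and no marker was at 0 unless stated. Excitatory neuron markers summed to 1268 to 1370 in KO slices and 1039 to 1160 in WT slices. Astrocyte markers summed to 2611 to 2795 in KO slices and 2834 to 3374 in WT slices. Endothelial and pericyte markers summed to 340.2 to 361 in KO slices and 405 to 471 in WT slices. Choroid plexus markers summed to 67.8 to 75.7 in KO slices and 83.0 to 85.5 in WT slices, with at most 1 marker at 0. Pan-neuronal markers summed to 7994 to 8808 in KO slices and 7709 to 7914 in WT slices. Meningeal markers overlapped, with 342 to 512 in KO slices and 463 to 606 in WT slices. Inhibitory neuron markers overlapped too, with 1066 to 1237 in KO slices and 1072 to 1322 in WT slices. So did oligodendrocyte markers, with 532 to 619 in KO slices and 543 to 660 in WT slices. Microglia markers, with 135 to 160 in KO slices and 142 to 180 in WT slices, also overlapped. The 10 excitatory markers all had a positive log2 fold change, and the 10 astrocyte, the 10 endothelial and pericyte and the 10 meningeal markers all a negative one, with medians of 0.32, -0.16, -0.33 and -0.44. None of these markers passed the threshold in limma, and 7, 4, 8 and 6 of them had an unadjusted p under 0.05. Across all genes tested at 4 h, 13.9% had an unadjusted p under 0.05 in limma and 49.4% were negative. No share over all genes was computed for the summed markers. Their part in the levels of the 5 RNAs was not tested. In bulk slices, fewer cells of a type and less RNA per cell cannot be told apart.

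The immediate early genes, which are switched on within minutes of a stimulus, also differed at 4 h. Of 21 such genes, 3 fell in KO slices by limma (Nr4a1, Fos and Egr1), 0 rose and 20 had a negative log2 fold change, with a median of -0.49 against 0.0024 for all genes. Nr4a1, a nuclear receptor, averaged 1049 ± 66.6 normalised reads in KO slices and 1954 ± 368 in WT slices (SD, n = 3 each; log2 fold change -0.88 ± 0.11, limma adjusted p = 0.0128). Fos, a subunit of the AP-1 factor, averaged 2033 ± 289 in KO slices and 3561 ± 531 in WT slices (log2 fold change -0.81 ± 0.11, limma adjusted p = 0.0161). The calls of Nr4a1 and Fos were lost without WT 1 (limma adjusted p = 0.116 and 0.191), without WT 2 (0.107 and 0.140) and without the libraries with Xist reads (0.0972 each). That of Egr1 was lost without any of WT 1, WT 2, WT 3 and KO 3 (limma adjusted p = 0.191, 0.0617, 0.0771 and 0.0710) and without the libraries with Xist reads (0.201). Summed reads of the list were 1082 to 1296 RPM in KO slices and 1542 to 1882 in WT slices. Its part in the levels of the lncRNAs was not tested.

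Genes for the proteins of the same nuclear bodies were counted next. Of 26 paraspeckle protein genes, 0 passed the threshold in limma at 4 h and 4 had an unadjusted p under 0.05, with 20 negative and a median log2 fold change of -0.10. The members of this list with the largest differences were Hnrnph3 (-0.30 ± 0.11, limma adjusted p = 0.239) and Sfpq (-0.19 ± 0.06, limma adjusted p = 0.227), which encode RNA-binding proteins of paraspeckles. Among 29 splicing factor genes of nuclear speckles 0 passed in limma and 9 had an unadjusted p under 0.05, with 25 negative and a median of -0.11. Pnisr had a log2 fold change of -0.45 ± 0.17 (limma adjusted p = 0.257), and Pnn, which encodes the splicing-associated protein pinin, had -0.25 ± 0.07 (limma adjusted p = 0.182). Of all genes tested 49.4% were negative and 13.9% had an unadjusted p under 0.05.

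Of 7 genes for speckle kinases, 1 fell at 4 h. Clk1 encodes a kinase that phosphorylates the splicing factors held in speckles. It averaged 615 ± 67.7 normalised reads in KO slices and 920.1 ± 54.0 in WT slices (SD, n = 3 each), a log2 fold change of -0.58 ± 0.09 with a limma adjusted p of 0.0448. The adjusted p in limma was 0.303 without WT 1, 0.142 without WT 2, 0.0771 without WT 3, 0.0669 without KO 3, 0.164 without the libraries with Xist reads and 0.0258 with the replicate block. Genes of nuclear RNA decay had 10 of 19 negative and 0 past the threshold in limma, with 2 at an unadjusted p under 0.05. Among 9 tested genes for proteins that bind these lncRNAs 0 passed and 0 had an unadjusted p under 0.05, with 7 negative.

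Of 56 other long noncoding RNAs listed, 40 were tested at 4 h. Of these 31 were negative, with a median log2 fold change of -0.20. In limma 0 of the 40 passed and 11 had an unadjusted p under 0.05. Their largest differences were in Snhg20 (-0.89 ± 0.22, limma adjusted p = 0.131), another snoRNA host gene, and Mir99ahg (-0.89 ± 0.27, limma adjusted p = 0.192), a microRNA host gene.

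Levels are compared between genes per kb of exon, in RPM per kb. On this scale Snhg11 had the highest median level at 4 h, 36.2, followed by Miat with 22.5, Malat1 with 7.14, Firre with 3.96 and Neat1 with 0.46. At 24 h Snhg11 had a median of 24.8, Malat1 7.43, Miat 6.59, Firre 3.39 and Neat1 0.50. Malat1 and Miat overlapped at 24 h, with library ranges of 5.22 to 14.2 and 4.94 to 17.8. Ranked by mean level per kb, Snhg11 was above 92.8% of the listed genes with a length at 4 h and Neat1 above 25.1%. Malat1, known as an abundant RNA in many tissues, stood above 70.1% there. At 24 h, among genes with any reads, Snhg11 stood above 93.8%, Malat1 above 78.6% and Neat1 above 50.1%. Reads of both Neat1 forms are divided by all 20771 bases of exon, which understates the level per kb of any short form.

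Miat was the RNA whose level differed most between the tables. Its 6 libraries at 4 h ranged from 111 to 303 RPM, and 13 of the 14 at 24 h ranged from 45.9 to 92.9. Het male 3 had 165 at 24 h, inside the 4 h range. Malat1 had medians of 49.9 RPM at 4 h and 51.9 at 24 h, with overlapping ranges, and Neat1 9.56 and 10.5. The tables differ in time, control genotype and filtering, so no test was made.

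**Figure D2:**
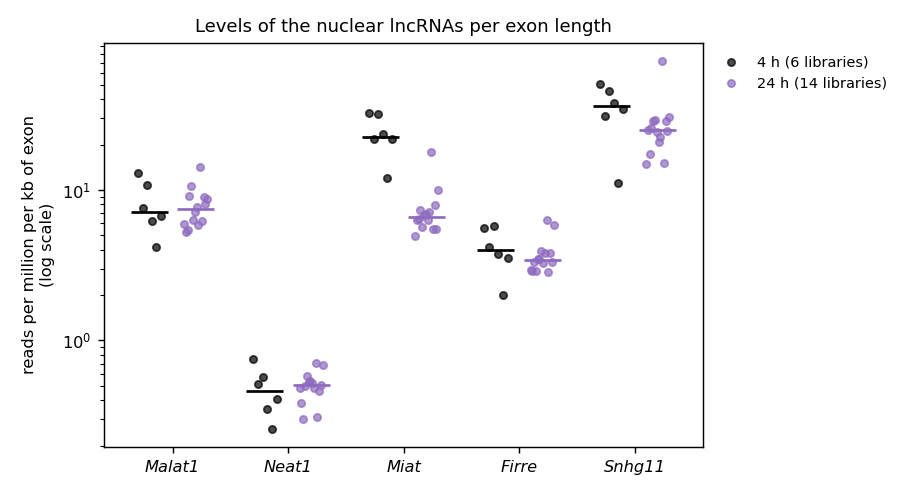
RPM per kb of exon (log axis) of the 5 RNAs; points are libraries, black for 4 h and purple for 24 h, and lines are medians. Miat is lower at 24 h in all libraries but 1, Malat1 and Neat1 have close medians at both times, and Neat1 is the lowest RNA in both tables. Reads of both Neat1 forms are divided by its full exon length.

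For scale, the listed lncRNAs with the highest level at 24 h were H19, an imprinted RNA, with 208 ± 28.9 RPM per kb (SD, n = 14), 1700020I14Rik with 61.3 ± 7.46, and Peg13 with 50.5 ± 3.25. Rian followed with 38.6 ± 3.25 and Meg3, from the same imprinted locus, with 25.9 ± 9.35. Snhg11 averaged 27.1, between Rian and Meg3.

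At 24 h, 0 of the 5 RNAs passed the threshold in the comparison of KO with Het slices averaged over sexes. The contrast called 0 of 16013 genes in edgeR (0.0%), with 1060 at an unadjusted p under 0.05 (6.62%). DESeq2 called 10 genes, none of them among the 5 RNAs. Values at 24 h are CPM with trimmed-mean (TMM) scaling. The 2 tables have different control genotypes, so the difference between the 4 h and 24 h contrasts was not tested.

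Malat1 had 64.8, 74.7, 44.7 and 50.05 CPM in KO females 1 to 4, against 41.5, 36.4 and 38.1 in Het females 1 to 3. It had 43.3, 62.7, 56.7 and 59.5 CPM in KO males, against 53.5, 41.1 and 95.5 in Het males. The 4 KO females lay above the 3 Het females, and the male groups overlapped. Averaged over sexes the log2 fold change was 0.21 ± 0.16 (edgeR adjusted p = 0.846), and it was 0.08 without Het male 2 and 0.42 without Het male 3.

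Neat1 had 10.6, 12.2, 11.1 and 11.1 CPM in KO females, against 10.05, 7.92 and 6.28 in Het females. It had 6.43, 9.61, 10.7 and 14.2 CPM in KO males, against 10.8, 9.98 and 14.1 in Het males. As for Malat1, the female groups did not overlap and the male groups did. The averaged log2 fold change was 0.15 ± 0.15 (edgeR adjusted p = 0.888), and it ranged from 0.05 without KO male 4 to 0.24 without Het female 1.

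Miat had 69.7, 53.2, 64.2 and 64.6 CPM in KO females, against 45.9, 58.7 and 59.4 in Het females. In males it had 51.8, 74.3, 51.6 and 91.6 CPM in KO slices, against 58.6, 66.1 and 159 in Het slices. The groups of each sex overlapped, and Het male 3 was the highest of all 14 libraries. The averaged log2 fold change was -0.14 ± 0.19 (edgeR adjusted p = 0.936), and 0.16 without Het male 3.

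Firre had 24.2, 28.8, 28.8 and 32.4 CPM in KO females, against 24.3, 23.7 and 27.4 in Het females. In males it had 23.6, 31.8, 27.9 and 47.1 CPM in KO slices, against 26.8, 31.4 and 49.9 in Het slices. Every group overlapped its counterpart, with KO male 4 and Het male 3 above the other 12 libraries. The averaged log2 fold change was 0.03 ± 0.15 (edgeR adjusted p = 0.990).

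Snhg11 had 224, 247, 253 and 208 CPM in KO females, against 126, 212 and 149 in Het females. In males it had 130.1, 245, 213 and 257 CPM in KO slices, against 178, 191 and 589.8 in Het slices. The lowest KO female lay just under the highest Het female, and Het male 3 stood above the 126 to 257 CPM of the other 13 libraries. The averaged log2 fold change was -0.04 ± 0.23 (edgeR adjusted p = 0.991), and 0.36 without Het male 3.

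**Figure D3:**
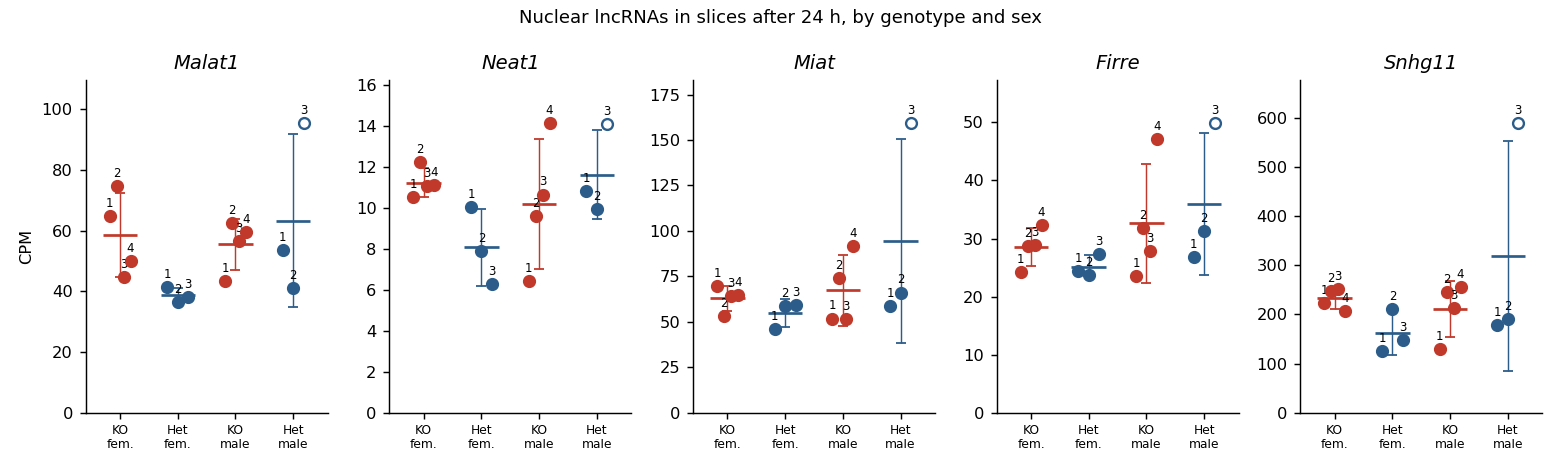
CPM of the 5 RNAs after 24 h in KO females (n = 4), Het females (n = 3), KO males (n = 4) and Het males (n = 3); points are libraries with their replicate number, lines are means and bars are SD. The open point is Het male 3, the highest library for Malat1, Miat, Firre and Snhg11. KO female 2 is placed by its label, against its Y-linked reads and lack of Xist.

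In the libraries labelled female, with KO female 2 included, the fitted KO minus Het difference was positive for all 5 RNAs. It was 0.59 ± 0.23 for Malat1 (unadjusted p = 0.0192) and 0.47 ± 0.21 for Neat1 (unadjusted p = 0.0410), and edgeR's adjusted p was 1.00 for every one of them. Snhg11 had 0.52 ± 0.33, Miat 0.21 ± 0.27 and Firre 0.18 ± 0.21. The groups did not overlap for 2 of the 5 RNAs, as for 4.7% of all genes tested, and 2 of the 5 had an unadjusted p under 0.05, as had 4.1% of all genes. Without KO female 2 the female log2 fold change was 0.46 for Malat1, 0.43 for Neat1, 0.49 for Snhg11, 0.28 for Miat and 0.18 for Firre. Averaged over sexes it was then 0.14 for Malat1, 0.13 for Neat1, -0.11 for Miat, 0.02 for Firre and -0.05 for Snhg11. The SE, p-values and overlaps of this paragraph include KO female 2, the highest KO female for Malat1 and Neat1.

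In males alone the fitted difference was negative for all 5 RNAs, from -0.13 ± 0.21 for Firre to -0.59 ± 0.32 for Snhg11, with edgeR adjusted p-values of 0.752 to 0.932. No RNA had groups that did not overlap, against 7.18% of all genes, and 0 of the 5 had an unadjusted p under 0.05, against 6.87% of all genes. For 4 of the 5 RNAs the sign depended on Het male 3. Without it the male log2 fold change was 0.24 for Malat1, 0.11 for Miat, 0.17 for Firre and 0.19 for Snhg11. That of Neat1, -0.16 ± 0.21, stayed negative with any library left out, between -0.37 without KO male 4 and -0.0046 without KO male 1.

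**Figure D4:**
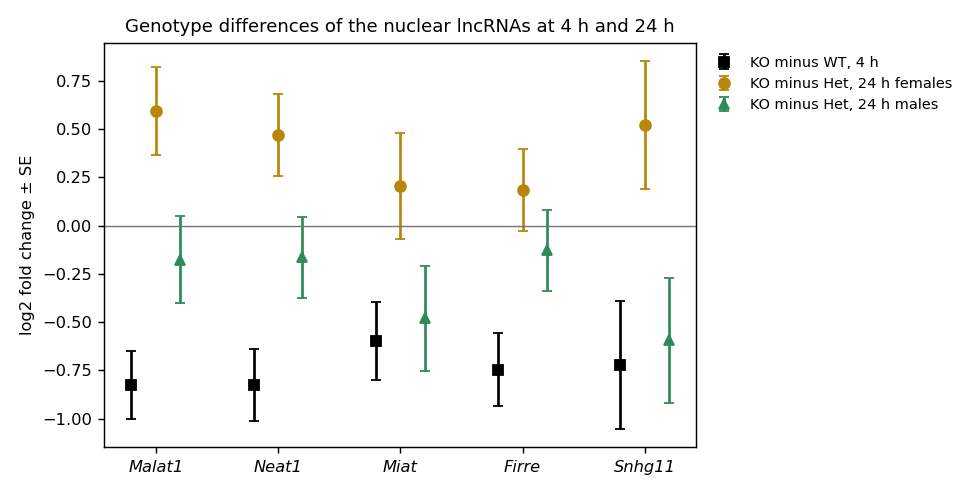
Log2 fold change with its SE of each RNA in KO minus WT slices at 4 h (squares) and in KO minus Het slices at 24 h. Circles are libraries labelled female, including KO female 2 with its Y-linked reads, and triangles are libraries labelled male. All 5 are below 0 at 4 h, above 0 in 24 h females and below 0 in 24 h males; the male values of Malat1, Miat, Firre and Snhg11 are positive without Het male 3.

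The difference between the female and the male genotype contrast was tested directly, with KO female 2 counted as a female in the SE and p-values. It was 0.77 ± 0.32 for Malat1 (unadjusted p = 0.0280), 0.64 ± 0.30 for Neat1 (unadjusted p = 0.0488) and 1.12 ± 0.46 for Snhg11 (unadjusted p = 0.0278). With Miat at 0.69 ± 0.39 and Firre at 0.31 ± 0.30, edgeR's adjusted p was 0.977 for each of the 5. An unadjusted p under 0.05 was reached by 3 of the 5 RNAs and by 3.86% of all genes. Without Het male 3 the difference was 0.35 for Malat1, 0.10 for Miat, 0.02 for Firre and 0.33 for Snhg11. Without KO female 2 it was 0.64 for Malat1, 0.60 for Neat1, 0.76 for Miat, 0.31 for Firre and 1.10 for Snhg11.

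Het male 3 set much of this spread. It had 1.91 times the median of the other 13 libraries for Malat1, 1.34 times for Neat1, 2.68 times for Miat, 1.79 times for Firre and 2.78 times for Snhg11. Its excitatory neuron markers summed to 843 RPM, against 929 to 1182 in the others. Its pan-neuronal markers summed to 6379, against 6424 to 7241, and its astrocyte markers to 4070, against 4115 to 6686. Its endothelial and pericyte markers summed to 406, above the 273 to 397 of the others. Its inhibitory neuron markers summed to 959, inside the 779 to 1007 of the others. Oligodendrocyte, microglia, meningeal and choroid plexus markers also lay inside the range of the others. So did the sums of mitochondrially encoded and of immediate early genes. The part of these values in the lncRNA levels was not tested.

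Firre is X-linked and sex is labelled at 24 h, so females were also compared with males, averaged over genotypes. Firre was lower in females by -0.36 ± 0.15 on the log2 scale, with 23.7 to 32.4 CPM in females and 23.6 to 49.9 CPM in males (unadjusted p = 0.0277, edgeR adjusted p = 0.998). Miat had -0.44 ± 0.19 (unadjusted p = 0.0357), Snhg11 -0.42 ± 0.23, Malat1 -0.32 ± 0.16 and Neat1 -0.20 ± 0.15, all with an edgeR adjusted p of 0.998. An unadjusted p under 0.05 was reached by 2 of the 5 RNAs and by 4.42% of all genes. Female and male values overlapped for all 5, and they did not for 0.0375% of all genes. KO female 2 counts as a female in that share, so even Xist overlapped. Xist had 0 to 364 CPM in KO females and up to 10.5 CPM in Het males. The share is therefore no background for genes that differ by sex. The contrast called 3 of 16013 genes (0.0187%), Xist among them with a log2 fold change of 8.50 ± 1.02 (edgeR adjusted p = 0.0041). Without KO female 2 the value for Firre was -0.36 and that of Xist 8.71. Without Het male 3 the values were -0.21 for Firre, -0.15 for Miat, -0.03 for Snhg11, -0.11 for Malat1 and -0.12 for Neat1.

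The gene lists around the 5 RNAs held no call in the KO minus Het contrasts at 24 h. Averaged over sexes, paraspeckle protein genes had 20 of 26 negative with a median of -0.02, and speckle splicing factors 17 of 29 positive with a median of 0.02. Splicing factors had 3 genes and paraspeckle proteins 1 gene at an unadjusted p under 0.05. Clk1 averaged 57.8 ± 7.57 CPM in KO females (n = 4) and 51.9 ± 3.17 in Het females (n = 3). It averaged 58.4 ± 4.65 CPM in KO males (n = 4) and 65.9 ± 16.4 in Het males (n = 3). The immediate early genes had 21 of 21 positive with a median of 0.40, and 9 with an unadjusted p under 0.05. Nr4a1, which fell at 4 h, had a log2 fold change of 0.85 ± 0.25 here (edgeR adjusted p = 0.738).

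Across the 14 libraries at 24 h, the RNAs varied together to different degrees. The likeness given here is Pearson's r of log2 CPM over those libraries, as a description, since they share tissue, depth and scaling. Miat and Snhg11 had r = 0.87, Miat and Firre 0.86, and Malat1 and Neat1 0.71. Within females Miat and Firre had r = 0.24 and within males 0.92. Every other pair except Malat1 and Neat1 also had a higher r in males. Het male 3 and KO male 4 were the highest libraries for both Miat and Firre. No r within males was computed without them. Malat1 and Neat1 had 0.72 in females and 0.69 in males. Within females without KO female 2, Miat and Firre had 0.36 and Malat1 and Neat1 0.65. Without Het male 3, Miat and Firre had 0.76, Miat and Snhg11 0.64, and Malat1 and Neat1 0.65.

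The genes most like each RNA were taken from 11373 genes with a mean log2 CPM of at least 3. For Malat1 they were Slc7a6os (r = 0.92), Pnn (0.90), the speckle-associated gene named above, and Abcc5 (0.88), and the most opposite was Got2 (-0.88), a mitochondrial aminotransferase. For Neat1 they were Stxbp2 (0.85), Cln3 (0.82) and Cdk10 (0.81), with Wdr36 most opposite (-0.85). For Miat they were Pfkp (0.96), a glycolytic phosphofructokinase, Wsb1 (0.95) and Thbs3 (0.94), with Thsd7a most opposite (-0.90). For Firre they were 3110039I08Rik (0.93), the RNA-binding protein gene Tia1 (0.93) and Ints6l (0.92), with Zfp704 most opposite (-0.84).

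Snhg11 was most like Meg3 (r = 0.96), a lncRNA that is also abundant in neurons, then Vwa5b2 (0.94) and Mcoln1 (0.93), with Cttnbp2nl most opposite (-0.88). Meg3 averaged 452 ± 51.5 CPM in KO females, 361 ± 63.9 in Het females, 456 ± 105 in KO males and 614 ± 303 in Het males (SD, n = 4, 3, 4 and 3). At 4 h it averaged 7283 ± 3181 normalised reads in KO slices and 10928 ± 2296 in WT slices (SD, n = 3 each).

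The 4 h values of the genes that followed an RNA at 24 h are given as a description, and nothing is read from them, since some of the RNAs were chosen on the 4 h contrast. Of the 50 genes most like Miat, 48 had a negative log2 fold change in KO minus WT slices, with a median of -0.33. The same count was 47 for Malat1 with a median of -0.23, 47 for Snhg11 with -0.27, 45 for Firre with -0.25 and 36 for Neat1 with -0.12. Of the 50 most opposite genes, 5 were negative for Miat, 8 for Firre, 11 for Snhg11, 16 for Malat1 and 16 for Neat1. The alike lists hold some of the 5 RNAs themselves, 3 in that of Neat1, 2 in that of Miat and 1 in each of the others. Without them 46 of 49 genes were negative for Malat1, 33 of 47 for Neat1, 46 of 48 for Miat, 44 of 49 for Firre and 46 of 49 for Snhg11, against 49.4% of all genes. The tables share no library, but some of the RNAs were chosen on the 4 h contrast, so the counts are not independent support.

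These counts depended on Het male 3 for some RNAs. Choosing the 50 most alike genes without that library gave 49 negative for Miat, 41 for Firre and 36 for Neat1. It gave 33 for Snhg11 and 29 for Malat1, with medians of -0.08 and -0.05. Of the 50 most opposite genes chosen without it, 24 were negative for Malat1, 23 for Snhg11, 20 for Neat1, 16 for Firre and 13 for Miat. The medians of these opposite genes were 0.010, 0.0062, 0.04, 0.03 and 0.10 in that order. The genes of the 5 lists are not independent of one another, and no test was made. Leaving out Het male 3, KO female 2 or the 5 RNAs themselves from the likeness was chosen after seeing the data.

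**Figure D5:**
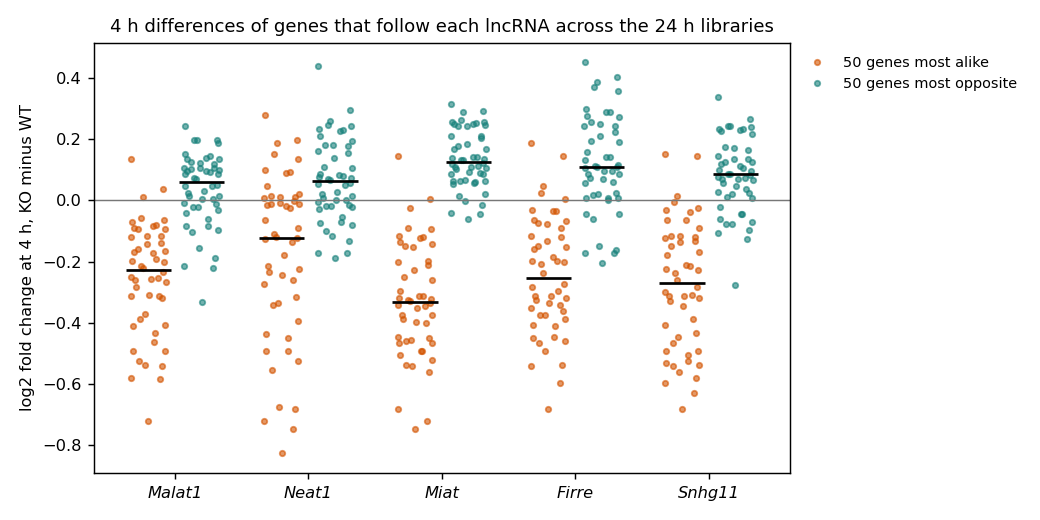
Log2 fold change at 4 h (KO minus WT) of the 50 genes most like (orange) and the 50 most opposite to (teal) each RNA across the 14 libraries at 24 h; black lines are medians. The alike genes have medians of -0.12 to -0.33 and the opposite genes medians of 0.06 to 0.13. With genes chosen without Het male 3 the medians are -0.05 to -0.32 and 0.0062 to 0.10. Some of the RNAs were chosen on the 4 h contrast, so nothing is read from these values.

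The promoters are given as a description of the genes. A promoter of 300 bases, 250 before and 50 after the start, was found for 4 of the 5 genes in RefSeq (GRCm38.p6), all but Neat1. They were searched on both strands for TGACGTC (the cAMP response element), TGANTCA (the AP-1 site), CACGTG (the E-box) and TATAAA (the TATA box). Malat1 held the first, on the opposite strand as GACGTCA, 156 bases before the start, as do 3.21% of 32851 promoters. Firre held CACGTG 71 bases before the start, as do 7.15%. Miat and Snhg11 held none of the 4 motifs, of which TGANTCA is in 7.81% and TATAAA in 13.6% of promoters. The 2 promoters with a match are printed with it in capitals:

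Malat1, chr19:5802623-5802922, minus strand: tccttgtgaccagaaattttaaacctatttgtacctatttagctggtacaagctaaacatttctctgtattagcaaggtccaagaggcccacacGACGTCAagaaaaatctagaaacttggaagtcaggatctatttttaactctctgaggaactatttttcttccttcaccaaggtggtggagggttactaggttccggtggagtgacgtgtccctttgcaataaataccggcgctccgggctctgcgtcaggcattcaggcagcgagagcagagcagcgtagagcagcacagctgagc

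Firre, chrX:50635272-50635571, minus strand: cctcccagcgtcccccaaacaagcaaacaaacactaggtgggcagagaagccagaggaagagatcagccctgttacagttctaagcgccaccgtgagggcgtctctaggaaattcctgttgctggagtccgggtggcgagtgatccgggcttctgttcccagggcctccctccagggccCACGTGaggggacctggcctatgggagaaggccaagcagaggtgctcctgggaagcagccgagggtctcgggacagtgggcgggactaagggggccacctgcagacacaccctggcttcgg

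The 4 promoters differ in composition, with 47.0% G or C in Malat1, 60.0% in Snhg11, 62.7% in Firre and 64.3% in Miat, against a median of 52.7%. Miat held 25 CG pairs, Snhg11 21, Firre 12 and Malat1 10, against a median of 7.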

How the data were processed

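Total RNA of slices was sequenced in 6 libraries at 4 h and 14 at 24 h, prepared by the SMART-Seq V4 method per the labels' protocols. Per the submitters' processing notes, GRCm38 (mm10), HTSeq, TopHat2 and DESeq2 1.38.3 were used; tool versions other than that of DESeq2, the annotation and the strandedness of counting were not given in the sources used here. At 24 h the authors deposited whole read counts, 21642 genes being 0 throughout. At 4 h the authors deposited a signal, namely read counts divided by 1 size factor per library. Every gene listed there had at least 2 recovered reads over its libraries. A filter before deposit is inferred from that minimum, and its rule is not known here. Dividing by the worth of 1 read gave whole reads for 100.0% of values within a tolerance of 0.05. Symbols were found for 19673 identifiers at 4 h and 51633 at 24 h.

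The 24 h counts were fitted with edgeR 4.0.16 (R 4.3.3): TMM scaling, its default filter (16013 genes kept) and the two-sided quasi-likelihood F test, with 1 mean per genotype and sex over 14 libraries. The 4 h values are not counts, so log2(value + 1) of the 15181 genes with a mean of at least 10 was fitted in limma 3.58.1, with a trend of the variance on intensity; this scale understates changes of low genes. Adjusted p-values are Benjamini-Hochberg over all genes tested, threshold 0.05. Both fits were checked on simulated data. Alternatives were other scalings, filters and pseudocounts, DESeq2 1.42.0, edgeR on the recovered reads, each library left out, and the replicate number as a block. The SE at 24 h is the fold change divided by the square root of the F statistic.

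Whether the replicate numbers pair the libraries was checked by correlating the deviations of same-numbered libraries from their group means. At 4 h r was 0.26, 0.14 and 0.18, all over 0.1. The numbers were taken as pairs, from the data alone, in the blocked fit and the percentages by pair. The main 4 h fit, with its adjusted p-values and list counts, does not use the pairs. The blocked SE values rest on pairs inferred from the same expression values.

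The members and the gene lists were chosen with earlier results of these data known. Other genes were named by rule: those of a list past the threshold, at most 5; otherwise the 2 with the largest fold change at a mean log2 level of at least 5; the 3 most alike and 1 most opposite gene of each RNA; and the 5 lncRNAs highest per kb. Transcripts and gene types are from GENCODE M21 and promoters from RefSeq, both on GRCm38.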

Additional observations from a re-analysis of the deposited data

How the results depend on the processing

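All 5 RNAs kept a negative 4 h difference under every alternative run (other pseudocounts, no filter, TMM scaling, edgeR or DESeq2 on recovered reads, each library left out, the Xist-carrying libraries left out). Malat1, Miat and Firre were chosen for lower KO values in these libraries, so nothing is read from the kept sign. Left-out libraries gave -1.03 to -0.63 for Malat1, -0.96 to -0.66 for Neat1, -0.78 to -0.30 for Miat, -0.91 to -0.47 for Firre and -1.03 to -0.16 for Snhg11. The number of genes called at 4 h, 7 in limma, was 38 with the replicate block, 146 with DESeq2, 1 without the Xist-carrying libraries and 1 to 211 with a library left out, the most without KO 2.

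The averaged KO minus Het difference at 24 h changed sign for Miat without Het male 3 (range over left-out libraries -0.26 to 0.16), for Firre with the replicate block (-0.11) and over left-out libraries (-0.092 to 0.18), and for Snhg11 with the block (0.042) and over left-out libraries (-0.18 to 0.36). In males it changed sign without Het male 3, with ranges over left-out libraries of -0.42 to 0.24 for Malat1, -0.72 to 0.11 for Miat, -0.37 to 0.17 for Firre and -0.88 to 0.19 for Snhg11. The cause was not tested. Same-numbered libraries at 24 h correlated at -0.12 to -0.04 in females and 0.03 to 0.09 in males, so their numbers do not pair them.

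In edgeR 0 genes were called at 24 h in KO minus Het averaged, in females, in males and in their difference, and 3 in female minus male. DESeq2 called 10, 2, 1, 1 and 6. Without a filter edgeR called 263, 180, 220, 165 and 215, as its prior degrees of freedom became infinite (6.47 with the filter). Malat1 and Snhg11 passed there in females. Over all alternatives, some run also passed Miat and Snhg11 in males, and Malat1, Miat and Snhg11 in the genotype difference between sexes. The same held for Malat1, Miat, Firre and Snhg11 in female minus male. With quasi-dispersions adjusted for small counts, chosen after seeing the calls without a filter, edgeR called 5 averaged, 1 in males and 9 in female minus male. The block called 6 averaged and 6 in females. Left-out libraries gave 0 to 2 averaged and 2 to 9 in female minus male, and 9 without the KO female library with Y-linked reads. At 81 to 227 reads per library at 4 h and 58 to 197 counts at 24 h, Neat1 has the widest counting error of the 5 RNAs.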

Other observations

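Xist, another nuclear lncRNA, was found in Het male 1 at 10.6 RPM, beside 145 RPM of Y-linked genes. The other 6 libraries labelled male had 0 to 0.55. The 6 libraries labelled female with Xist reads had 334 to 359 RPM and 0 of Y-linked genes. In Het male 1 the 5 RNAs lay inside the range of the other 13 libraries.

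Choroid plexus markers differed more between libraries at 24 h than any of the 5 RNAs, with summed levels of 167 to 3005 RPM in KO females and 154 to 187 in Het females, and of 172 to 665 in KO males and 131 to 164 in Het males. In KO 2 and WT 2, where all 5 RNAs were lowest in their group at 4 h, the totals were 15030171 and 13173416 reads.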
